A study of Brassica napus with 6 samples.

Results

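The vacuolar iron transporter-like genes, also called nodulin-21 or VTL genes, were followed in the roots of oilseed rape whose leaves had received glutathione. The family was listed as 5 Arabidopsis loci: AT1G21140, AT1G76800, AT3G25190, AT3G43630 and AT3G43660. A member was counted as measured where the annotation of the Arabidopsis ATH1 array pairs a probe with that locus alone. This gave 2 of 5 members among 13350 genes named in this way, AT3G43660 through probe 252697_at and AT3G43630 through probe 252694_at. For AT1G21140, AT1G76800 and AT3G25190 no probe could be named here, and they were not analysed. The family was chosen by the measured values of AT3G43660, which stood among the higher genes of the same comparison. Its values and those of its paralogue are therefore given as a description, without a test.

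Proteins of this family are related to the vacuolar iron transporter VIT1 of Arabidopsis and to CCC1 of yeast, which move iron from the cytosol into the vacuole. Vacuolar storage keeps free iron, which can drive the formation of reactive oxygen species, out of the cytosol. The family takes its other name from nodulin-21, a protein of soybean root nodules. In Arabidopsis, transcripts of several family members are known to fall when iron is scarce, the opposite of the genes for iron uptake.

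Root RNA of Brassica napus cultivar Nourin No.16 was labelled with biotin and measured on 6 single-colour arrays. The plants were 4 weeks old and had grown in nutrient solution, 4 seedlings to a container. In 3 arrays the plants had received reduced glutathione (GSH, a tripeptide thiol) for 4 days. It was brushed on at 100 mM, 50 µL on each of 3 expanded leaves, in a buffer of MES with the detergent Triton X-100. The other 3 arrays came from control plants that were left untreated for 4 days. The labels name no buffer treatment of these controls, so an effect of GSH and one of the brushed buffer cannot be told apart. The labels call the arrays of a group biological replicates and do not say whether plants were pooled.

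The deposited values ran from 5.09 to 12.9 on a log scale, and the arrays were alike to an unusual degree. Over the 6 arrays the median probe ranged over only 1.91 millionths of a unit. In what follows a value on an array is written in millionths of this log unit, as the deviation from the mean of the probe over all 6 arrays. They are not fold changes, and their size cannot be compared between probes, because how the spread became this small is not given in the sources used here. The array medians over the 22746 probes tested differed by up to 1.65 millionths, and with the array control probes included by up to 3.47. On values scaled by the SD of each probe, the leading principal component (25.5% of the variance) placed controls 1 and 3 on the same side as GSH replicate 3, away from the other arrays. By limma 0 of 22746 probes passed a Benjamini-Hochberg adjusted p of 0.05, and 1535 had an unadjusted p below that level. Only 2 root markers and 3 leaf markers of the fixed lists had a probe of their own, and at each of these 5 the groups overlapped. Levels of different probes cannot be compared on an array, so the tissue rests on the labels.

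On the deposited values AT3G43660, named VTL4 in Arabidopsis, lay higher in the roots of all 3 GSH-treated replicates than in any control. The control arrays stood at -2.73, -2.63 and -2.98 millionths. The GSH arrays stood at 3.9, 1.25 and 3.19 millionths for replicates 1, 2 and 3. The controls thus lay close together, while GSH replicate 2 lay below the other GSH replicates. A gap of 3.88 millionths separated the highest control from the lowest GSH array. Among all 22746 probes, 5.63% had every GSH array above every control. The group means were -2.78 ± 0.181 (SD, n = 3) in controls and 2.78 ± 1.37 (SD, n = 3) after GSH. The difference was 5.56 millionths, with a standard error (SE) of 0.738 from the limma fit. All SEs given here come from this fit, which draws the variance of each probe toward a value shared over all probes. At probes with a small spread the SE can therefore exceed what their own replicates give. At probes with a larger spread, AT3G43660 and AT3G43630 among them, it is smaller than their own replicates give. By moderated t the AT3G43660 probe stood at place 13 from the top of the 22746 probes, the position for which it was picked. Under quantile normalization AT3G43660 took the same value on all arrays, so its groups did not differ in that setting. Whether the RNA of this gene changed at all was not tested. If it did, more RNA per cell cannot be told apart in bulk root tissue from more cells that express the gene.

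AT3G43630, named VTL3 in Arabidopsis, also had a higher mean after GSH, but its groups overlapped. The control arrays stood at -1.57, 0.42 and -2.59 millionths. The GSH arrays stood at 3.11, 0.518 and 0.115 millionths for replicates 1, 2 and 3. Control replicate 2 thus lay above GSH replicate 3 and just below GSH replicate 2, and GSH replicate 1 alone stood well above the others. The group means were -1.25 ± 1.53 (SD, n = 3) in controls and 1.25 ± 1.62 (SD, n = 3) after GSH. The difference was 2.49 millionths with a standard error of 1.18. The probe stood at place 1224 by moderated t, and 5.38% of probes had a larger value.

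**Figure D1:**
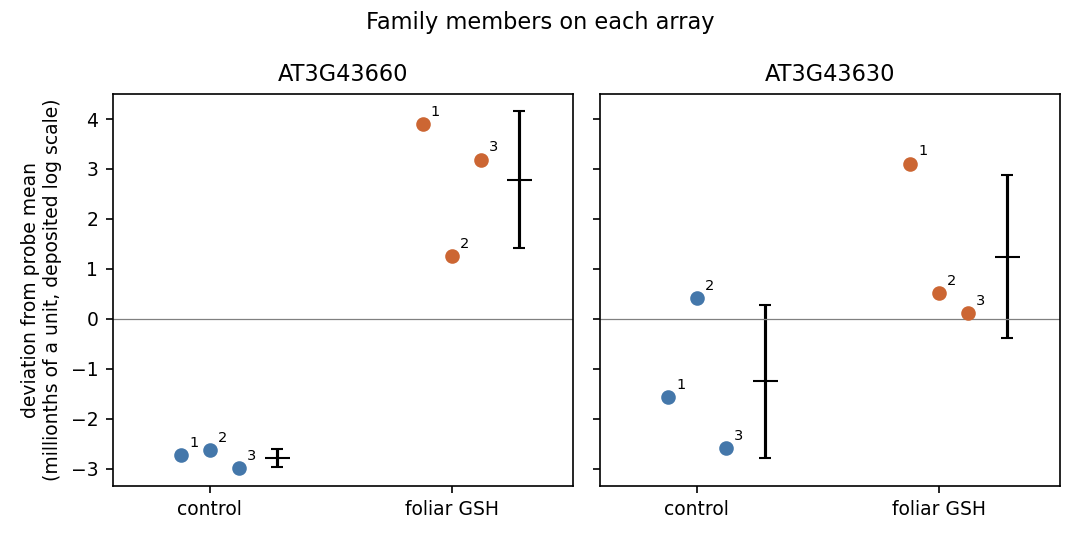
Values of AT3G43660 (left) and AT3G43630 (right) on each array, as deviations from the mean of the probe in millionths of a log unit as deposited. Points are single arrays with their replicate number, and bars are the group mean ± SD (n = 3). The GSH arrays of AT3G43660 all lie above its controls, whereas control replicate 2 of AT3G43630 lies at 0.42, above GSH replicate 3 at 0.115.

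Over the 6 arrays the values spanned 6.89 millionths at AT3G43660 and 5.7 at AT3G43630. Within the span of their own probe the controls lay close together at AT3G43660 and apart at AT3G43630. The control SD was 0.181 millionths at AT3G43660 and 1.53 at AT3G43630, each with n = 3. The SDs after GSH were 1.37 and 1.62. Because the scale of each probe is unknown, the SDs of the probes were not tested against each other. AT3G43660 was also picked for its high place in this comparison, which a small spread within groups helps to give. Its close controls are therefore no separate result. In both genes GSH replicate 1 was the highest array and control replicate 3 the lowest. Over the 6 arrays the probes had a Pearson correlation of 0.772, which includes the shift between groups. For deviations from the group means it was 0.524. As a description of all named genes, 4.15% correlated with AT3G43660 at least as closely as AT3G43630 did. Both values rest on the same 6 arrays, and the probes may also take up RNA of each other's rape homologues, which was not tested.

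Both probes were brighter than most on the array. The mean signal was 6.11 for AT3G43660 and 6.17 for AT3G43630, above the upper quartile of 6.06. Signal also depends on how well rape RNA matches an Arabidopsis probe, so this gives no order of abundance. Both means lay toward the low end of the deposited values, which ran from 5.09 to 12.9. Detection calls were not used, so whether these probes stood above background was not tested.

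With each array left out in turn both differences stayed above 0, which at AT3G43660 follows from groups that do not overlap. The AT3G43660 difference ran from 5 millionths without GSH replicate 1 to 6.33 without GSH replicate 2. The AT3G43630 difference ran from 1.56 millionths without GSH replicate 1 to 3.33 without control replicate 2. The AT3G43630 difference was thus smaller by more than 1.5 times without GSH replicate 1.

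**Figure D2:**
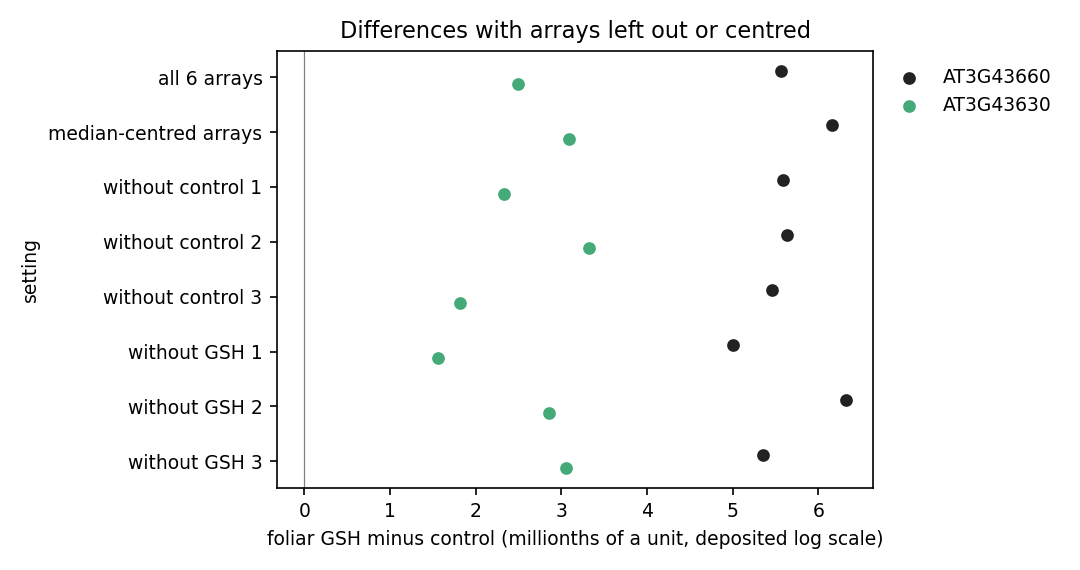
Difference between foliar GSH and control, in millionths of a log unit as deposited, with all arrays, with arrays centred on their medians over the tested probes, and with each array left out. Black points are AT3G43660, from 5 to 6.33, and green points are AT3G43630, from 1.56 to 3.33, so all points lie above 0. Quantile normalization, under which AT3G43660 took the same value on all arrays, is not drawn.

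The locus identifiers of both measured members begin with AT3G, for chromosome 3 of Arabidopsis, where they are near neighbours. Other loci numbered from AT3G43600 to AT3G43700 that the annotation alone paired with a single probe were AT3G43610, AT3G43640, AT3G43650, AT3G43670, AT3G43680 and AT3G43690. The groups overlapped at each of these 6 loci. Between the paralogues by number, AT3G43640 differed by 0.406 millionths (SE 0.541) and AT3G43650 by 0.0157 (SE 0.133). AT3G43640 was read through probe 252695_s_at, and whether that probe also takes up other transcripts was not tested. For AT3G43670, the next number after AT3G43660, the difference was -1.57 millionths (SE 0.777, adjusted p = 0.831 by limma). AT3G43680 differed by 5.96 millionths (SE 6.63), AT3G43690 by -5.46 (SE 3.57) and AT3G43610 by -0.299 (SE 0.839). Rape homologues need not lie in this order, and their positions were not used here.

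Iron genes outside the family were taken from 5 lists covering vacuolar transport, storage, uptake, regulators and chelation. Of their 76 genes, 16 were measured, through 17 probes. By limma 0 of 17 probes passed the threshold over all probes, where the share among all probes was 0%, with adjusted p from 0.615 to 1.00. Of the 17, 4 probes were higher and 0 lower at an unadjusted p under 0.05, against 3.13% higher and 3.61% lower among all probes. All GSH arrays lay above all controls at 3 of 17 probes and below at 0, against 5.63% and 5.75% of all probes. The mean was higher after GSH at 12 probes and lower at 5, and with arrays centred on their medians at 14 and 3, or at 12 and 5 where the medians included the array control probes. The median moderated t was 0.81. Leaving out 1 array moved 13 of the 17 differences by more than 1.5 times or turned their sign. The lists were written with earlier results of these arrays known, so these counts are no independent support.

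Of the vacuolar and cellular metal transporters, AT3G58060 and NRAMP5 were measured. AT3G58060 encodes MTP8, a manganese and iron transporter of the vacuolar membrane. Its controls stood at -0.173, -0.514 and -0.499 millionths and its GSH arrays at -0.0573, 0.413 and 0.832. The groups did not overlap, with a gap of 0.116 millionths between control replicate 1 and GSH replicate 1. Its difference was 0.791 millionths (SE 0.282, adjusted p = 0.703 by limma). NRAMP5, of the NRAMP family of metal transporters, differed by 0.119 millionths (SE 0.157), with overlapping groups, and by 0.0257 without control replicate 1. VIT1 itself had no probe that could be named here. Of the storage list, which held the ferritins, the measured gene was ISU1, a scaffold protein for iron-sulfur clusters. It differed by -1.44 millionths (SE 0.77, adjusted p = 0.853 by limma), and its groups overlapped. Without control replicate 1 it differed by -0.918 millionths.

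Of the uptake genes, those of coumarin synthesis and release were measured. Coumarins are phenolic compounds that roots secrete to mobilise iron. AT3G13610 encodes F6'H1, the hydroxylase needed for scopoletin synthesis. Its controls stood at -59.6, -77.6 and -34.8 millionths and its GSH arrays at -15.6, 80.5 and 107 millionths. All GSH arrays lay above all controls, but GSH replicate 1, the highest array for both family members, was the lowest of the GSH arrays here. The difference was 115 millionths (SE 35.7, limma adjusted p = 0.652). AT3G12900, the next hydroxylase of the pathway (S8H), differed by 1.75 millionths (SE 0.657, adjusted p = 0.726 by limma), and control replicate 1 lay above GSH replicate 2. BGLU42, a beta-glucosidase that acts in coumarin release, differed by -0.635 millionths (SE 1.37), with overlapping groups. Without single arrays it ran from -1.59 to 0.404, and it turned sign without control replicate 2 or GSH replicate 3.

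Regulators of the iron deficiency response made up 10 of the 16 measured genes. AT1G74770 encodes BTSL1, a RING-type ligase that lowers the iron deficiency response, and its probes disagreed. At probe 262218_at its controls stood at -1.52, -2.38 and -1.71 millionths and its GSH arrays at -0.349, 2.96 and 2.99. There all GSH arrays lay above all controls, and the means lay 3.74 millionths apart (SE 1.04, limma adjusted p = 0.615). At probe 262217_at the groups overlapped and the difference was -0.204 millionths (SE 0.19), from -0.319 without GSH replicate 2 to -0.0815 without GSH replicate 3. The signal of that probe, 5.65, lay under the lower quartile of 5.67. The related ligase gene AT1G18910 (BTSL2) differed by 0.326 millionths (SE 0.367), with overlapping groups. It ran from 0.006 without control replicate 3 to 0.637 without control replicate 1. AT1G47400, which encodes the IMA1 peptide that promotes iron uptake, differed by 0.106 millionths (SE 0.131), and by 0.069 without GSH replicate 3. Its group SDs were 0.0325 in controls and 0.0862 after GSH, and its groups overlapped.

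The remaining regulators were transcription factors of the basic helix-loop-helix class, and the groups overlapped at each. Among the activators of the deficiency response, bHLH121 differed by 3.95 millionths (SE 1.87), ILR3 by 1.16 (SE 1.26) and bHLH104 by 0.33 (SE 0.223). Likewise bHLH34 differed by 0.183 millionths (SE 0.338) and bHLH115 by -1.96 (SE 3.06). The factor BHLH101, itself induced by iron deficiency in Arabidopsis, differed by -0.58 millionths (SE 0.561). PYE, a repressor in the same network, differed by 0.213 millionths (SE 0.444). Their limma adjusted p ran from 0.809 for bHLH121 to 1.00. Single arrays moved each of them by more than 1.5 times. The bHLH121 difference was 2.24 millionths without GSH replicate 2, and that of bHLH104 was 0.14 without control replicate 3. ILR3 ran from 0.541 without control replicate 2 to 2.31 without GSH replicate 1. BHLH101 ran from -0.874 without GSH replicate 2 to -0.0342 without GSH replicate 3. The signs of bHLH34, bHLH115 and PYE turned without single arrays.

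**Figure D3:**
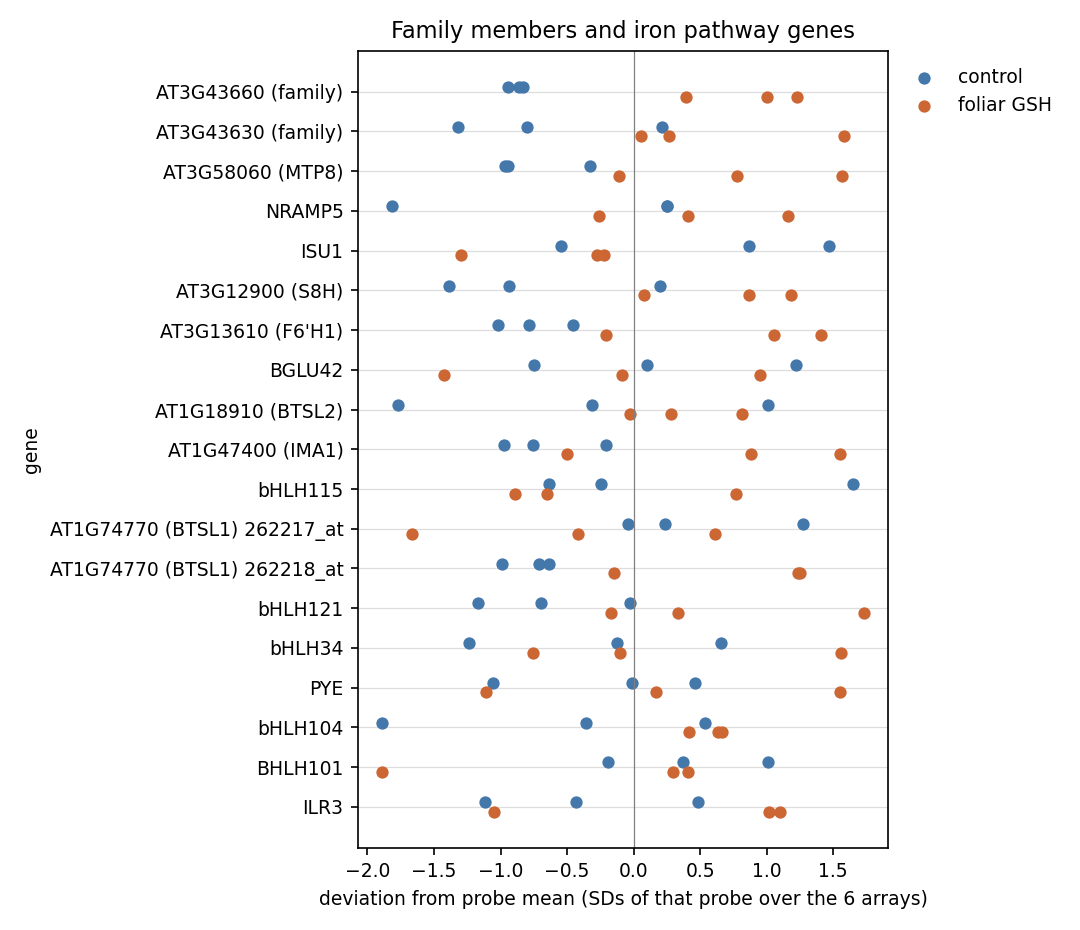
Values of the family members and of the 17 probes for iron genes on each array. The horizontal axis gives the deviation from the mean of the probe in SDs of that probe over the 6 arrays, with controls in blue and foliar GSH in orange. The colours separate fully at AT3G43660, AT3G58060, AT3G13610 and probe 262218_at of AT1G74770, and overlap in the other rows.

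The genes with a profile most like that of AT3G43660 were taken by the highest Pearson correlation over the 6 arrays, among 13348 named genes outside the family. AT2G27285 came first with a correlation of 0.991, followed by KEU, also at 0.991. AT5G53360 and AT5G63130 had 0.985 each, and AT3G03770 had 0.983. KEU encodes a Sec1-type protein needed for the fusion of vesicles at cell division. KEU stood at -2.48, -1.84 and -2.55 millionths in the controls and at 2.72, 1.46 and 2.7 after GSH. As at AT3G43660, GSH replicate 2 was the lowest of the GSH arrays. None of the 5 was an iron list gene. With a profile so clearly split between groups as the template, genes found in this way also show the split, so it is not a result about them. Over all named genes outside the family, 119 had a correlation above 0.9, which is 0.892% of them.

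**Figure D4:**
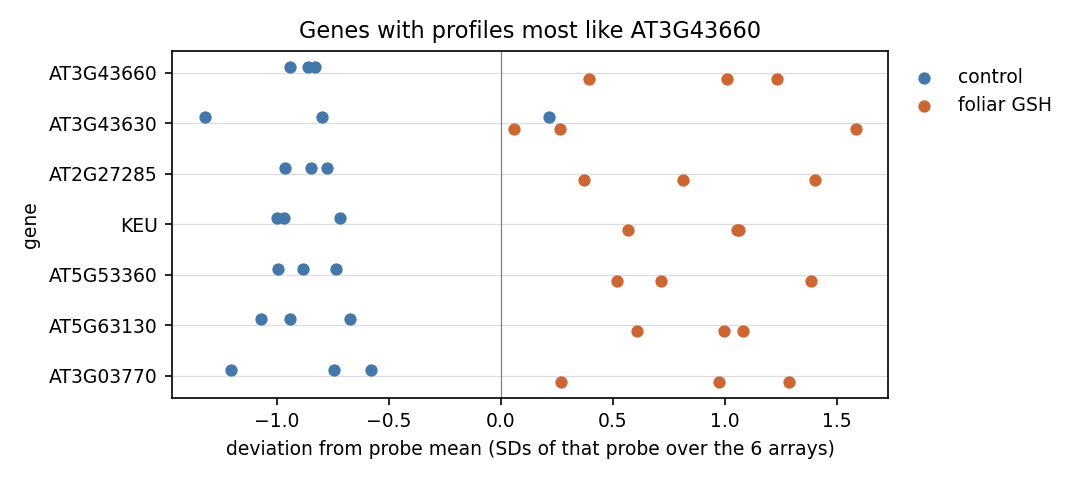
Values of AT3G43660, AT3G43630 and the 5 genes whose profiles were most like that of AT3G43660, on each array. The horizontal axis gives the deviation from the mean of the probe in SDs of that probe over the 6 arrays, with controls in blue and foliar GSH in orange. The 5 genes, with correlations from 0.983 to 0.991, have separated groups like AT3G43660, while the groups of AT3G43630 overlap.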

How the data were processed

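The authors deposited one table of values for 22810 probes on 6 arrays, taken here to be log2 values from their range and used without further normalization. How the authors corrected background, summarised probes and normalized, and to which base they took logs, is not given in the sources used here. The submitters' processing notes name R 2.7.2. Total root RNA was turned into biotinylated cRNA, per the labels' protocols. Leaving out 64 array control probes left 22746. Of these, 13513 were paired with 1 gene, 503 with several, and 8730 were unnamed here. No identifier links the rape gene table given as a reference to the array annotation.

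The comparison of 3 arrays with 3 used lmFit and eBayes of limma 3.58.1 (R 4.3.3) on every probe, dim ones included. In this main fit p-values were adjusted by Benjamini-Hochberg over all 22746, with 0.05 as the threshold. The limma fit and the check for overlapping groups were tested on simulated data with large added shifts. Every simulated probe had the same SD, so unequal spreads between probes were not covered. The number of arrays limits the precision. Family members and gene lists were chosen with earlier results of these data known. Named genes were the measured family members, every measured gene of the iron lists, and the 5 genes most like AT3G43660. One locus entered by mistake in the storage list was removed after the annotation was seen and before its values were. Alternatives were median-centred arrays, quantile normalization, probes above the lower quartile, the replicate block, single arrays left out, trended and robust variance, Welch's test and probes divided by their SD. Centring on medians that include the array control probes was added after seeing the data. The replicate numbers were not taken to pair the arrays, because they are not stated to mark a shared batch. Deviations from the group mean correlated at -0.0188, -0.0181 and 0.103 between arrays that share a replicate number. With 3 arrays in a group these values cannot settle whether the arrays are paired.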

Additional observations from a re-analysis of the deposited data

How the results depend on the processing

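The count of probes passing by limma, 0 over all probes, was 27 (12 of them higher) under quantile normalization, 3 among probes above the lower quartile of probe means and 1 in the fit with a replicate block. Under quantile normalization and the lower quartile filter, the fit and the adjustment covered only the probes kept. Those counts and the 0 over all probes therefore rest on unlike sets of probes. The count was 0 in the other alternatives apart from one centring given below. Among them was Welch's test, with 1012 probes at an unadjusted p under 0.05. No iron list gene passed in any alternative run. Quantile normalization left 2688 probes with any difference, and 2 of the 17 iron probes. It set AT3G43660 to one value on all arrays, so the groups of AT3G43660 did not differ in that setting. It left the AT3G43630 difference at 0.55 millionths. Centring arrays on their medians over the tested probes added 0.598 millionths to every difference, giving 6.16 for AT3G43660 and 3.09 for AT3G43630. It turned BHLH101 to 0.0178 and probe 262217_at of AT1G74770 to 0.394. With medians that included the array control probes, an alternative chosen after seeing the data, the constant was 0.121, the differences were 5.68 and 2.62 millionths, no iron gene turned sign and 15 probes passed, 0 of them higher. Without single arrays BGLU42 ran from -1.59 to 0.404, PYE from -0.142 to 0.559, bHLH115 from -3.92 to 0.714 and bHLH34 from -0.0763 to 0.378. These were 9 changes of sign among 220 values of iron and similar genes, and the cause was not tested beyond the constant added by centring. The replicate block leaves the differences themselves as they are. With 3 arrays a group and an unknown scale for each probe, sizes of change are not measured here.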
